A study of Homo sapiens with 30 samples.

Results

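The genes described here are 8 transcription factors of epithelial-mesenchymal transition (EMT), SNAI1, SNAI2, TWIST1, TWIST2, ZEB1, ZEB2, FOXD1 and PRRX1, out of 60675 genes counted in SW1783 cells, an established human astrocytoma line (ATCC HTB-13). They were taken by symbol as a named family, chosen by their measured CPM against vehicle: SNAI1 and FOXD1 had a mean below vehicle in every treated group. RNA was sequenced from 30 libraries in 16 groups, all after 24 h. The 3 vehicle libraries had received 0.1% DMSO per the sample labels, while the series' own text gives a higher share, so the solvent level behind each difference from vehicle is not settled. The water extracts of 2 formulas of traditional Korean medicine, Palmul-tang and Sibjeondaebo-tang, had 3 libraries each at 20, 100 and 500 µg/mL. At the same doses there was a single library each for Samul-tang (a water extract), Poria Cocos and Atractylodis Rhizoma (ethanol extracts). The labels number the Samul-tang libraries replicate 3 and those of Poria Cocos and Atractylodis Rhizoma replicate 1. All libraries come from 1 cell line, and the labels do not say whether those of a group were separate cultures, so the spread behind each p-value may be technical.

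In epithelia, EMT factors repress genes of cell junctions and let cells take on a mesenchymal, motile form. SNAI1, SNAI2, ZEB1 and ZEB2 are zinc finger repressors that bind E-boxes, short DNA motifs best known from the promoter of the E-cadherin gene CDH1. TWIST1 and TWIST2 are basic helix-loop-helix factors that pair with E proteins, FOXD1 is a forkhead factor known from kidney stroma, and PRRX1 is a paired-type homeobox factor of embryonic mesenchyme. Gliomas are not epithelial, and in them the same factors are studied for the mesenchymal state and for invasion.

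Promoter sequence is shown for the member whose level lay furthest below vehicle, FOXD1, and for the member that rose most clearly with dose, ZEB1. RefSeq promoters on GRCh38.p14 matched 5 of the 8 members. The windows are the 250 bases before an annotated start, 5′ to 3′ on the gene's strand, at chr5:73448778-73449027 (minus strand) for FOXD1 and at chr10:31318167-31318416 (plus strand) for the first of the ZEB1 starts. Capitals mark the E-box CAGGTG, searched on both strands as CAGGTG or CACCTG.
FOXD1: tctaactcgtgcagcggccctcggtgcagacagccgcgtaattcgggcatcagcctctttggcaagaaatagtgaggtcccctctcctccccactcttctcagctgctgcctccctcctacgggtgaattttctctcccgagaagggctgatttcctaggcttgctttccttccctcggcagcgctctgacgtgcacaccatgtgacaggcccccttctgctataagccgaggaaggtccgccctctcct
ZEB1: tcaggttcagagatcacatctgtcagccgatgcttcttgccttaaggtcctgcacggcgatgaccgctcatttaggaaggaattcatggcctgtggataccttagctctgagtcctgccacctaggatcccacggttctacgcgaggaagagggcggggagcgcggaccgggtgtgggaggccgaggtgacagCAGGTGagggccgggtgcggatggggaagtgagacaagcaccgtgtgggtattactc
The ZEB1 window shown held 1 match, beginning 57 bases before the start, and the FOXD1 window held none. Among the windows of the other ZEB1 starts, that at chr10:31318966-31319215 held 2 matches. Those beginning at 31318568, 31319518, 31320304, 31320951 and 31321410 held 0. Over all 35116 windows of this length 17.49% held a match, so this motif is common.

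Compared per length, as median CPM (read counts relative to library size, scaled by TMM) per kilobase of the principal transcript, SNAI2 stood highest of the 8 at 35.2, with a range of 33.0 to 40.6 over the 30 libraries. PRRX1 followed at 25.2 (21.8 to 27.6) and TWIST1 at 17.3 (14.3 to 18.8). SNAI2, PRRX1 and TWIST1 did not overlap each other over the libraries. Lower medians were 14.1 for ZEB1 (13.4 to 16.45) and 13.6 for FOXD1 (12.2 to 23.65). TWIST2 had 11.1 (10.05 to 12.6) and SNAI1 11.04 CPM per kilobase (8.9 to 16.4). FOXD1 thus ran past TWIST1 and into the range of PRRX1, and ZEB1 and SNAI1 ran into that of TWIST1. The highest values of FOXD1 and SNAI1 were those of the vehicle libraries. ZEB2 was lowest at 1.76 (1.44 to 2.15), below every library of the other 7. Divided by the length of all merged exons instead, SNAI2 was still highest and ZEB2 lowest, but TWIST1 (14.2) stood above PRRX1 (13.1). All 8 passed the filter on low counts, with between 339 and 3979 counts per library.

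On GRCh38 (GENCODE 29) the members lie at chromosome 20, 49982999 to 49988886 (SNAI1, ENSG00000124216), chromosome 8, 48917604 to 48921740 (SNAI2), chromosome 7, 19020991 to 19117672 (TWIST1), and chromosome 2, 238848032 to 238910543 (TWIST2). ZEB1 (ENSG00000148516) lies at chromosome 10, 31318495 to 31529814, ZEB2 (ENSG00000169554) at chromosome 2, 144364364 to 144524583, FOXD1 (ENSG00000251493) at chromosome 5, 73444827 to 73448527, and PRRX1 at chromosome 1, 170662728 to 170739419. Values are for whole genes, over exons and UTRs. The counting strand is not given in the sources used here, so reads of overlapping antisense genes cannot be told apart. FOXD1 shared 424 bases, 16.16% of its exons, with FOXD1-AS1 (0 to 35 counts), TWIST1 shared 141 bases, 6.94% of its exons, with the antisense gene ENSG00000232821 (10 to 32 counts), ZEB1 shared 366 bases with ZEB1-AS1 (103 to 285 counts) and ZEB2 shared 1299 bases with ZEB2-AS1 (0 to 1 count). Estimated counts were not whole in 26 libraries for ZEB1 and in 21 for FOXD1, so some of their reads were shared with other genes.

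Total counts ran from 22.57 to 37.82 M per library. The glial label had only part of its marker RNAs. Of 11 astrocyte markers, GFAP, AQP4, S100B and ALDH1L1 had medians under 0.1 CPM and SLC1A2 one of 0.30. Higher medians were those of GJA1 (250.7 CPM), SOX9 (66.8), GLUL (52.5), SLC1A3 (24.2) and NES (6.06). The intermediate filament VIM, also among the 11, stood at 4973 CPM. The E-cadherin gene CDH1 had at most 10 counts in any library. Within the replicated groups, Sibjeondaebo-tang 500 µg/mL replicate 3 stood apart, at a chi-square per gene of 8.14 and 7.42 from its 2 group mates, which differed by 2.64 from each other. Next came Sibjeondaebo-tang 100 µg/mL, with 6.68 between replicates 1 and 2, 4.16 between 1 and 3 and 3.76 between 2 and 3. Pairs in the other groups had 2.14 to 4.13. The calls of members that use Sibjeondaebo-tang 500 µg/mL replicate 3 are given with and without it. Library codes in the labels form sets, and all 3 vehicle libraries carry a set that no treated library shares, so vehicle and that set cannot be told apart. All 15 differences from vehicle share the same 3 vehicle libraries.

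SNAI1 and FOXD1 had their highest levels in vehicle and lower levels in every treated library, and these values are a description, since they chose the members. In vehicle SNAI1 stood at 27.7, 27.5 and 26.3 CPM. With Palmul-tang it stood at 19.7, 17.99 and 16.3 CPM at 20 µg/mL, 18.2, 19.0 and 17.9 at 100, and 15.1, 15.3 and 16.6 at 500. With Sibjeondaebo-tang the values were 21.2, 16.5 and 19.7 CPM at 20 µg/mL, 19.9, 16.8 and 20.5 at 100, and 15.6, 15.1 and 17.8 at 500. The highest of these 18 libraries was thus still below the lowest vehicle library. In the single libraries at 20, 100 and 500 µg/mL, SNAI1 had 20.9, 19.1 and 17.7 CPM with Samul-tang, 17.3, 19.8 and 20.3 with Poria Cocos, and 17.7, 20.1 and 19.8 with Atractylodis Rhizoma. Its mean log2 difference from vehicle over the 15 treated groups was -0.55, from -0.79 (Palmul-tang 500 µg/mL, 57.8% of the vehicle mean) to -0.38 (Samul-tang 20 µg/mL, 77.1%). In bulk RNA, fewer cells with the transcript and less of it per cell cannot be told apart.

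FOXD1 stood at 47.0, 53.7 and 48.0 CPM in vehicle. The 9 Palmul-tang libraries had 32.0, 31.9 and 31.1 CPM at 20 µg/mL, 30.9, 29.8 and 29.7 at 100, and 28.7, 27.8 and 29.1 at 500. With Sibjeondaebo-tang FOXD1 had 29.3, 32.0 and 27.7 CPM at 20 µg/mL, 29.1, 32.2 and 29.4 at 100, and 33.9, 31.0 and 31.7 at 500. FOXD1 was thus already in this lower range at the lowest dose of both formulas. The single libraries at 20, 100 and 500 µg/mL had 31.5, 31.2 and 30.5 CPM with Samul-tang, 31.5, 31.4 and 31.1 with Poria Cocos, and 30.1, 28.6 and 28.0 with Atractylodis Rhizoma. The mean log2 difference from vehicle was -0.70, within a range of -0.82 (Atractylodis Rhizoma 500 µg/mL) to -0.62 (Sibjeondaebo-tang 500 µg/mL), or 56.6% to 65.0% of the vehicle mean. The differences of FOXD1 from vehicle thus spanned a narrower range over extracts and doses than those of SNAI1.

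**Figure D1:**
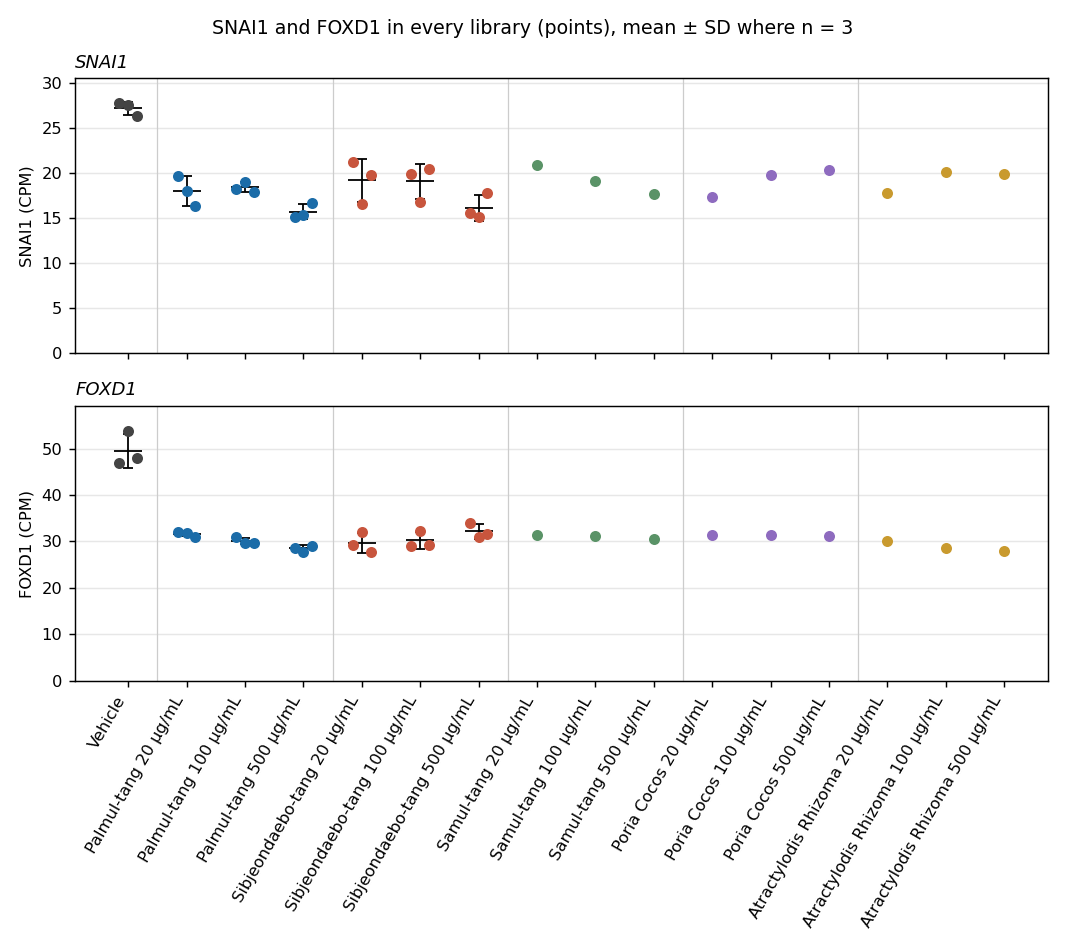
SNAI1 (top) and FOXD1 (bottom) in CPM on the vertical axes, by group; each point is a library, and bars give mean ± SD where a group has 3 libraries. All 27 treated libraries of each gene lie below the 3 vehicle libraries, with SNAI1 between 15.1 and 21.2 and FOXD1 between 27.7 and 33.9 CPM.

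For both genes 27 of 27 treated libraries lay below all vehicle libraries, as did 7.44% of the 17839 tested genes, and 15 of 15 treated groups had a mean below vehicle, as did 17.8%. SNAI2 (93.1, 88.7 and 98.5 CPM in vehicle, 80.1 to 89.3 treated) and TWIST2 (17.2, 17.7 and 16.5 in vehicle, 14.1 to 17.3 treated) also had means below vehicle in all 15 groups, with mean log2 differences of -0.15 and -0.14. Their libraries overlapped with vehicle: 24 of 27 lay below all vehicle libraries for SNAI2 and 21 for TWIST2. PRRX1 had the opposite sign, with means above vehicle in 15 of 15 groups (16.5% of tested genes) and a mean log2 difference of 0.10. TWIST1 had 14 groups below and 1 above vehicle (-0.07), ZEB1 5 below and 10 above (0.06), and ZEB2 10 below and 5 above (-0.05). Without vehicle replicate 2 TWIST1 had 8 groups below, and without vehicle replicate 1 ZEB1 had 2. Scaled by total counts only, TWIST1 had 6 groups below (mean -0.01) and ZEB1 0 (mean 0.12). The mean difference of ZEB2 changes sign, to 0.01, when libraries are scaled by total counts only. Summed marker levels also differed between vehicle and treated libraries: 8 epithelial markers summed to 201 to 206 CPM in vehicle and 109 to 192 treated, with CDH1, EPCAM, KRT5, GRHL2 and ESRP1 at medians under 0.1, and 9 fibroblast and mural markers to 6518 to 6749 and 5400 to 6324, none of them under 0.1. The 11 astrocyte markers summed to 5942 to 6097 CPM in vehicle and 4800 to 5867 treated. Endothelial markers summed to 30.5 to 34.3 CPM in vehicle and 34.1 to 41.4 treated, with a narrow overlap (VWF, CDH5 and CLDN5 at medians under 0.1). The sums of the microglial and blood (183 to 196 and 140 to 188), neuronal (69.7 to 73.9 and 67.7 to 79.7) and oligodendrocyte markers (5.44 to 6.52 and 5.46 to 8.49) also overlapped. Single genes made up most of some sums: VIM (median 4973 CPM) for astrocyte, KRT18 (152.7) for epithelial and KDR (33.8) for endothelial markers. The same held for CD68 (156.6) among microglial and blood and MBP (5.8) among oligodendrocyte markers. The collagen genes COL1A1 (3567) and COL1A2 (1855) made up most of the fibroblast and mural sum. The part of these shifts in the members' differences was not tested.

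**Figure D2:**
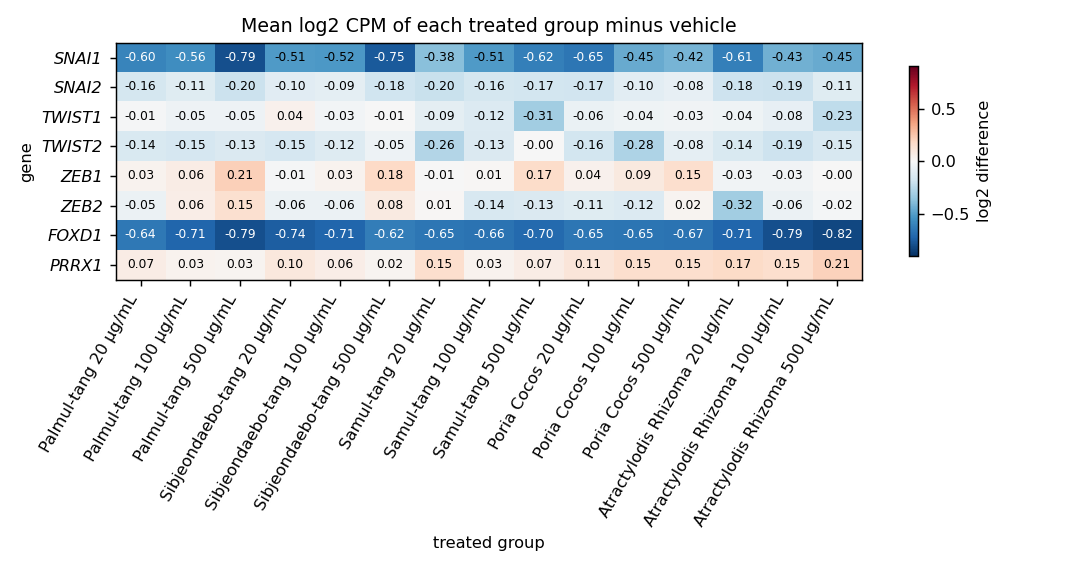
Mean log2 CPM of each of the 15 treated groups (columns) minus vehicle for the 8 factors (rows), with the value printed in each cell and in colour. SNAI1 and FOXD1 are negative throughout (-0.79 to -0.38 and -0.82 to -0.62), and PRRX1 is positive in every group (0.02 to 0.21).

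The dose comparison within treated libraries asked which factors differed between 500 and 20 µg/mL, and no vehicle library enters it. ZEB1, a repressor held down in epithelia by the miR-200 family, stood higher at 500 µg/mL with both formulas. In Palmul-tang ZEB1 had 78.4, 76.1 and 74.4 CPM at 20 µg/mL, 78.3, 79.5 and 76.0 at 100, and 85.8, 86.6 and 86.6 at 500. In Sibjeondaebo-tang it had 75.2, 73.3 and 73.6 CPM at 20 µg/mL, 79.0, 75.8 and 73.8 at 100, and 85.4, 89.2 and 79.1 at 500. In either formula all 500 µg/mL libraries lay above all 20 µg/mL libraries, which held for 4.57% of tested genes. The vehicle libraries, at 76.9, 73.2 and 73.5 CPM, lay near the 20 µg/mL libraries. ZEB1 rose 1.13-fold in Palmul-tang (log2 fold change 0.18 ± 0.040 (SE), adjusted p = 0.00385, quasi-likelihood test of edgeR, Benjamini-Hochberg), where 5.3% of tested genes were called at an adjusted p under 0.05 and 2.83% were called higher. It rose 1.14-fold in Sibjeondaebo-tang (0.19 ± 0.040, edgeR adjusted p = 0.00122, and 0.24 with adjusted p = 2.91e-05 without replicate 3 at 500), where 6.24% of genes were called and 3.45% were called higher.

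ZEB1 was the 1 member of 8 called in each formula alone. Averaged over both formulas (6 against 6 libraries), 3 of 8 members were called: ZEB1 and ZEB2 rose and SNAI1 fell, where 12% of tested genes were called, 6.33% higher and 5.69% lower. ZEB1 rose 1.14-fold (log2 fold change 0.19 ± 0.028, 95% interval 0.13 to 0.24, edgeR adjusted p = 7.94e-06), and 0.21 without Sibjeondaebo-tang 500 µg/mL replicate 3. This call held under every alternative setting and with each library left out, at adjusted p-values of at most 0.000104.

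ZEB2, the relative of ZEB1 with the lowest level per length, moved the same way with less certainty. In Palmul-tang ZEB2 had 14.7, 16.6 and 18.4 CPM at 20 µg/mL and 18.1, 18.3 and 20.5 at 500, so the groups overlapped. In Sibjeondaebo-tang it had 16.4, 16.7 and 16.3 CPM at 20 µg/mL and 18.1, 18.9 and 17.3 at 500, with no overlap, as for 10.1% of tested genes. ZEB2 rose 1.12-fold over both formulas (log2 fold change 0.17 ± 0.051, edgeR adjusted p = 0.0253, and 0.18 with adjusted p = 0.015 without Sibjeondaebo-tang 500 µg/mL replicate 3). The call was lost with the Wald test of DESeq2 (adjusted p = 0.0518) and by edgeR without Palmul-tang 20 µg/mL replicate 1 (0.13, adjusted p = 0.111), Palmul-tang 500 replicate 3 (0.14, adjusted p = 0.105), Sibjeondaebo-tang 500 replicate 2 (0.15, adjusted p = 0.0728) or Sibjeondaebo-tang 20 replicate 3 (0.16, adjusted p = 0.0515). Within the formulas ZEB2 was not called, at 0.20 ± 0.072 (edgeR adjusted p = 0.119) in Palmul-tang and 0.14 ± 0.071 (adjusted p = 0.335) in Sibjeondaebo-tang. In Palmul-tang it was called without replicate 3 at 20 µg/mL (0.28, edgeR adjusted p = 0.0321).

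**Figure D3:**
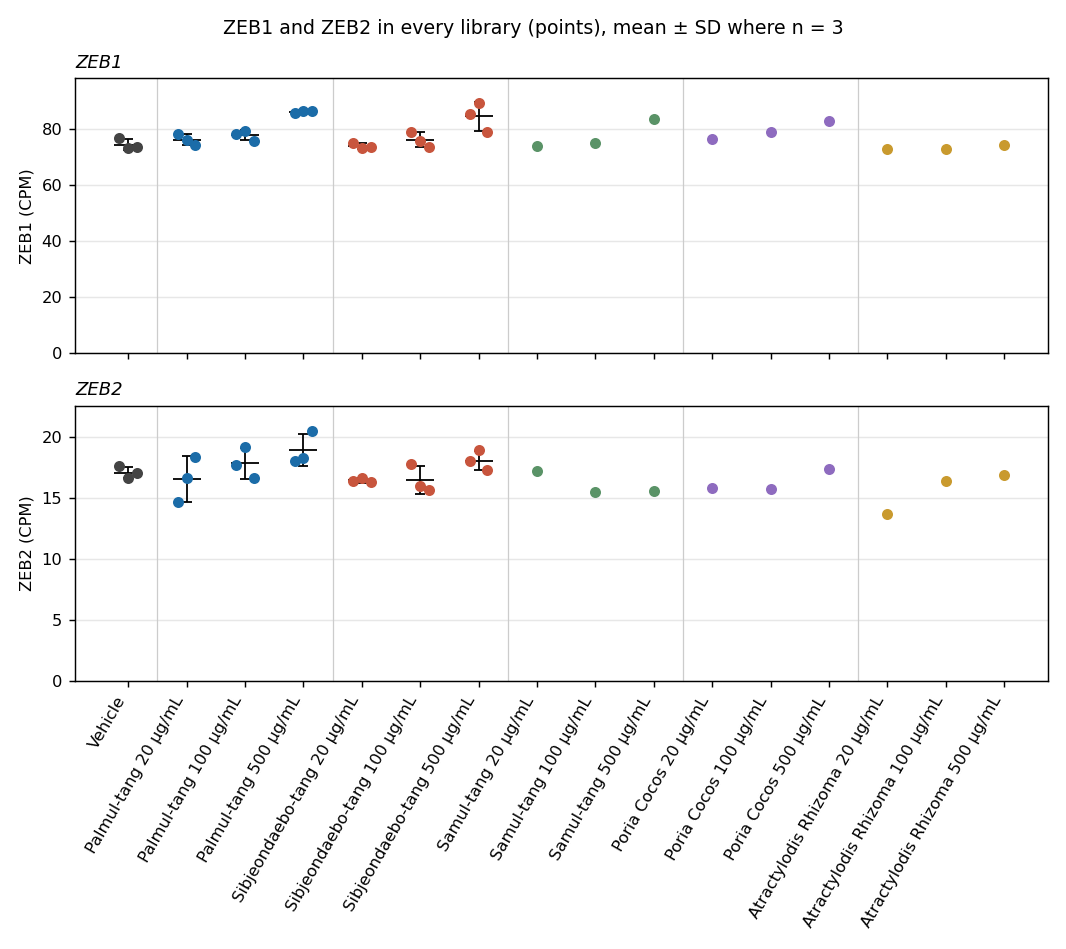
ZEB1 (top) and ZEB2 (bottom) in CPM on the vertical axes, by group; each point is a library, and bars give mean ± SD where a group has 3 libraries. The ZEB1 libraries at 500 µg/mL of both formulas, 79.1 to 89.2 CPM, lie above those at 20 µg/mL, 73.3 to 78.4 CPM.

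SNAI1, a repressor whose protein is short-lived, moved against ZEB1 and ZEB2. It fell by 0.22 on the log2 scale from 20 to 500 µg/mL over both formulas (SE 0.060, 95% interval -0.35 to -0.10, edgeR adjusted p = 0.0124), to 0.857 of its level at 20 µg/mL. Without Sibjeondaebo-tang 500 µg/mL replicate 3 the value was -0.26 (adjusted p = 0.00369), and with each other library left out in turn the adjusted p stayed at or below 0.047. From the values above, the 500 and 20 µg/mL libraries of SNAI1 overlapped in each formula. Neither formula alone was called, at -0.20 ± 0.086 in Palmul-tang (edgeR adjusted p = 0.24) and -0.25 ± 0.084 in Sibjeondaebo-tang (edgeR adjusted p = 0.0794). In Sibjeondaebo-tang SNAI1 was called without replicate 2 at 20 µg/mL (-0.34, edgeR adjusted p = 0.00608), without replicate 3 at 500 (-0.32, adjusted p = 0.0245) and with no filter on low counts (-0.25, adjusted p = 0.0093). A fit with the replicate number as a block also called SNAI1 there (-0.249, edgeR adjusted p = 0.0438).

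The other 5 members were not called over both formulas. SNAI2, with 85.3, 84.6 and 81.3 CPM at 20 µg/mL and 82.1, 80.8 and 81.6 at 500 in Palmul-tang, had a log2 fold change of -0.06 (95% interval -0.11 to 0.00, edgeR adjusted p = 0.211). TWIST1 had -0.04 (-0.11 to 0.04), TWIST2 0.06 (-0.04 to 0.15) and PRRX1 -0.06 (-0.15 to 0.04). TWIST2 was the other member whose 500 µg/mL libraries of Sibjeondaebo-tang (16.7, 16.2 and 16.8 CPM) all lay above those at 20 (15.4, 15.9 and 14.9), and in Palmul-tang they overlapped. FOXD1 had -0.02 (-0.10 to 0.07, edgeR adjusted p = 0.877), the mean of opposite signs: -0.15 ± 0.057 in Palmul-tang (adjusted p = 0.15), where its 500 µg/mL libraries all lay below those at 20, as for 11.6% of genes, and 0.12 ± 0.056 in Sibjeondaebo-tang (adjusted p = 0.261), where they overlapped. Without Sibjeondaebo-tang 500 µg/mL replicate 3, FOXD1 had -0.01 over both formulas and 0.13 in Sibjeondaebo-tang. The difference between these changes was 0.27 ± 0.080 (95% interval 0.11 to 0.43, edgeR unadjusted p = 0.00205, adjusted p = 0.938, and 0.28 with adjusted p = 0.447 without that library), which does not pass over all genes. By edgeR 0 of 17839 genes (0%) differed between the formulas in their dose change (716 at an unadjusted p under 0.05, 0 by the Wald test of DESeq2, 12 in edgeR with no filter on low counts, 1 without Sibjeondaebo-tang 500 µg/mL replicate 3).

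**Figure D4:**
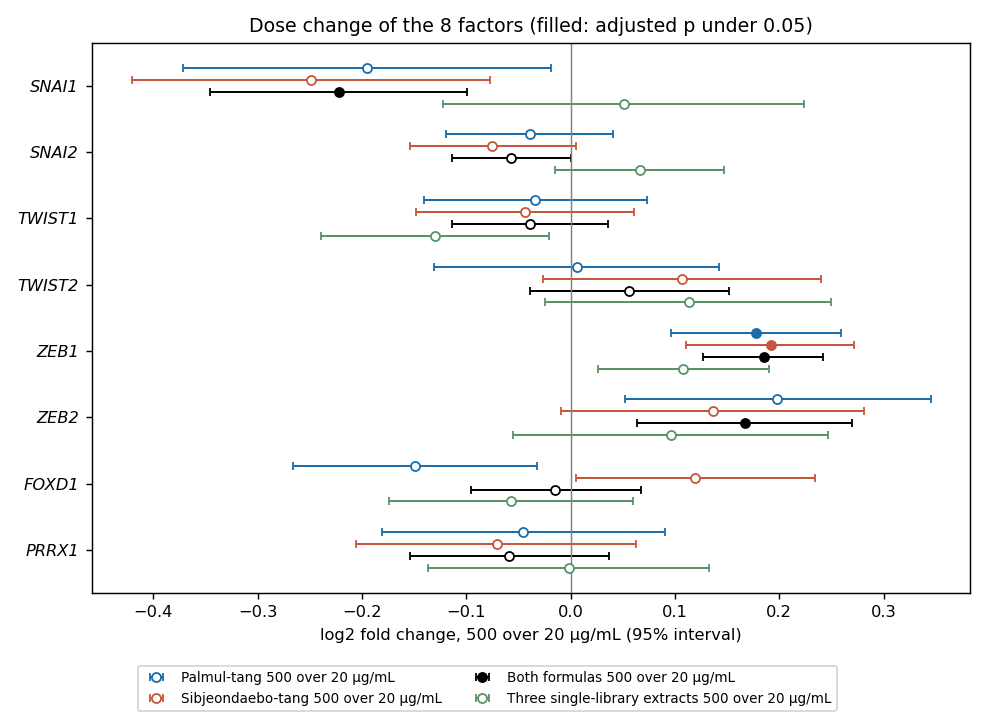
Log2 fold change of 500 over 20 µg/mL (horizontal axis, point with 95% interval) for the 8 factors in Palmul-tang, Sibjeondaebo-tang, both formulas and the 3 extracts with single libraries; filled points have an adjusted p under 0.05. ZEB1 lies at 0.18 to 0.19 in the formulas and at 0.11 in the single-library extracts, and SNAI1 at -0.25 to -0.20 in the formulas.

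At 100 µg/mL the members stood near their levels at 20 µg/mL. From 20 to 100 µg/mL over both formulas 0 of 8 members were called by edgeR (0 at an unadjusted p under 0.05, 0 by DESeq2), where 0.516% of genes were, and the largest estimate was 0.05 (ZEB2, 95% interval -0.05 to 0.16). ZEB1 had a difference of 0.04 (-0.02 to 0.09) and SNAI1 one of 0.01 (-0.11 to 0.13). From 100 to 500 µg/mL, which was set up only once results were known, 3 of 8 members were called (6.49% of genes, 3.3% higher and 3.18% lower): ZEB1 rose by 0.15 ± 0.028 (edgeR adjusted p = 0.000369), SNAI1 fell by 0.23 (SE 0.060, adjusted p = 0.0158) and SNAI2 fell by 0.09 (SE 0.028, adjusted p = 0.0445). Without Sibjeondaebo-tang 500 µg/mL replicate 3 the values were 0.17, -0.26 and -0.08, the last with an edgeR adjusted p of 0.0815. The SNAI2 call was lost in 9 of 12 fits with 1 library left out (all but those without Palmul-tang 100 replicate 3 and Sibjeondaebo-tang 100 or 500 replicate 2), at edgeR adjusted p-values up to 0.152, and that of SNAI1 without Sibjeondaebo-tang 100 replicate 3 (adjusted p = 0.0543). SNAI2 also missed the threshold with total counts only (edgeR adjusted p = 0.0518), with no filter (0.0616) and in a fit of the compared groups only (0.0639).

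Sibjeondaebo-tang, which holds the herbs of Palmul-tang and more, was compared with it over all doses (9 against 9 libraries). By edgeR 0 of 8 members differed (0 at an unadjusted p under 0.05, 0 by DESeq2), and 1 gene in all (0.00561%; 760 at an unadjusted p under 0.05, 2 by the Wald test of DESeq2). The member estimates ran from -0.07 (ZEB2, 95% interval -0.15 to 0.02) to 0.06 (SNAI1, -0.04 to 0.16). For these factors, differences in the mean over doses beyond about 0.16 in size thus lie outside the intervals. These intervals do not cover single doses. At 500 µg/mL FOXD1 had means of 32.2 CPM in Sibjeondaebo-tang and 28.5 in Palmul-tang, and that difference was not tested.

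The extracts with 1 library per dose were tested together, 3 libraries at 500 against 3 at 20 µg/mL, with the spread taken from the replicated groups. ZEB1 went from 74.2 to 83.7 CPM with Samul-tang and from 76.4 to 82.8 with Poria Cocos, both above vehicle at 500, and from 72.8, below all vehicle libraries, to 74.5 with Atractylodis Rhizoma, within the vehicle range. Its mean change was 0.11 ± 0.040 (edgeR adjusted p = 0.172). SNAI1, from 20.9 to 17.7 CPM with Samul-tang, stood higher at 500 than at 20 µg/mL with Poria Cocos and Atractylodis Rhizoma, and its mean change was 0.05 (95% interval -0.12 to 0.22). By edgeR 0 of 8 members were called (2 at an unadjusted p under 0.05, ZEB1 and TWIST1, and 0 by DESeq2), where 2.79% of genes were, 498 in all. Leaving out either library of an extract took the whole extract out of the comparison. Genes called were then 189 without Samul-tang, 189 to 190 without Poria Cocos and 526 to 529 without Atractylodis Rhizoma. Whether these extracts differ from the formulas in the dose change of SNAI1 was not tested.

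Samul-tang, whose herbs are part of both formulas, was set against them over matched doses. TWIST1, known from mesoderm and skull development, had 27.8, 27.1 and 23.8 CPM at 20, 100 and 500 µg/mL of Samul-tang. Over the 18 formula libraries it ran from 27.2 to 30.9 CPM, so the Samul-tang libraries at 100 and 500 µg/mL lay below all of them. Among the other single libraries, Atractylodis Rhizoma at 500 µg/mL (25.15 CPM) also lay below them. The rest, at 27.99 to 28.86 CPM, did not. TWIST1 was lower with Samul-tang by a log2 difference of -0.16 ± 0.042 (edgeR adjusted p = 0.0289, and 0.0226 without Sibjeondaebo-tang 500 µg/mL replicate 3), the 1 member of 8 called, where 2.32% of genes were (1.51% lower). The call depended on the 500 µg/mL dose, where Samul-tang had 1 library. Without that library the formulas' 500 µg/mL libraries left the comparison as well. Over 20 and 100 µg/mL the value was then -0.09 (edgeR adjusted p = 0.724), and the genes called went from 414 to 40. With total counts only, over all doses, the TWIST1 value was -0.14 (edgeR adjusted p = 0.0732). Samul-tang and the formulas carry different library code sets, so extract and code set cannot be told apart. Between Poria Cocos and Atractylodis Rhizoma, which share a code set, 0 of 8 members were called by edgeR (2 at an unadjusted p under 0.05, ZEB1 and FOXD1, and 0 by DESeq2), against 1.42% of genes (253). ZEB1 came nearest, at 0.11 ± 0.040 (edgeR adjusted p = 0.195). Leaving out either 500 µg/mL library took both out of the comparison, and 2 genes were then called over 20 and 100 µg/mL.

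Genes around the factors were counted over both formulas at 500 against 20 µg/mL, where the median log2 fold change of all tested genes was 0.00 and 12% were called. Of 32 epithelial genes that SNAI and ZEB factors are known to repress, 17 were tested and 15, CDH1, EPCAM and ESRP1 among them, were too low. Of the 17, 1 rose, 3 fell and 13 were not called by edgeR, with a median of -0.01 (2 rose without Palmul-tang 20 µg/mL replicate 2 or with no filter). CLDN1, a tight junction protein, rose from 5.95 ± 0.595 to 12.7 ± 0.491 CPM (SD, n = 3) in Palmul-tang and from 5.16 ± 0.317 to 12.7 ± 0.758 in Sibjeondaebo-tang, 2.29-fold over both (95% interval 2.11 to 2.49, edgeR adjusted p = 1.63e-17). KRT18, a keratin of simple epithelia, fell from 156 ± 1.86 to 116 ± 3.08 CPM in Palmul-tang (0.733-fold over both, edgeR adjusted p = 6.61e-17). Its partner KRT8, which shares 525 exon bases with KRT18 on the opposite strand, fell to 0.849, and the desmosome protein DSP fell to 0.777 of the level at 20 µg/mL. The 4 called epithelial genes thus moved in both directions. Their log2 fold changes without Sibjeondaebo-tang 500 µg/mL replicate 3 were 1.21 for CLDN1, -0.46 for KRT18, -0.26 for KRT8 and -0.35 for DSP.

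Of 30 mesenchymal genes 4 rose, 10 fell and 16 were not called (median -0.06), but 2 rose without Palmul-tang 20 or 500 µg/mL replicate 2. The actin gene ACTA2 of contractile cells fell by 0.43 (log2), from 107 ± 0.400 to 78.4 ± 2.81 CPM in Palmul-tang, and the tropomyosin TPM1 and the collagen chain COL1A2 fell by 0.20 and 0.17. CDH2, N-cadherin, rose 1.05-fold (edgeR adjusted p = 0.0154), and VIM was not called at 0.07 (adjusted p = 0.0526). Of 14 regulators tied to the mesenchymal state of glioma 3 rose, 2 fell and 9 were not called (median 0.02). The NF-kappa B subunit RELB rose 1.75-fold, the coactivator WWTR1 fell by 0.13 and the receptor MET fell by 0.08.

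Upstream of the factors, TGF-beta and BMP signals reach SNAI and ZEB genes through SMAD proteins. Of 20 genes for TGF-beta ligands, receptors and SMADs 4 rose, 7 fell and 9 were not called (median -0.02). The signal carrier SMAD3 rose 1.149-fold and the activator of latent TGF-beta THBS1 1.17-fold, while LTBP3, which binds latent TGF-beta, fell by 0.30 and the repressor SKIL fell by 0.26. Of 20 tested BMP genes 2 rose, 8 fell and 10 were not called (median -0.09), and 1 rose by the Wald test of DESeq2. ID2 and ID4, which block basic helix-loop-helix factors by taking up their E protein partners, fell to 0.446 and 0.456 of the level at 20 µg/mL, and the BMP pathway inhibitor SMAD6 fell to 0.560. GREM1, a secreted BMP antagonist, rose 1.58-fold (edgeR adjusted p = 5.63e-12). Without Sibjeondaebo-tang 500 µg/mL replicate 3, 6 TGF-beta genes rose and 7 fell, 2 BMP genes rose and 7 fell, and 4 mesenchymal genes rose and 12 fell. The 3 E proteins that pair with TWIST factors were not called, at -0.06 to 0.01.

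Genes that act with the factors or on their proteins were called in both directions. Of 21 co-repressors and chromatin partners 2 rose, 2 fell and 17 were not called (median 0.02). WTIP, a LIM protein that binds SNAI factors, fell by 0.20 and the deacetylase HDAC1 fell by 0.09, while LIMD1, another such LIM protein, rose 1.09-fold and the chromatin remodeller SMARCA4 1.06-fold. The LIMD1 call was lost without Palmul-tang 20 µg/mL replicate 2 or 3 (edgeR adjusted p = 0.0519 and 0.066), and that of SMARCA4 in 6 of 12 fits with 1 library left out (edgeR adjusted p up to 0.119). The number that rose was thus 1 without any of the 3 Palmul-tang 20 libraries, Palmul-tang 500 replicate 2 or 3, Sibjeondaebo-tang 500 replicate 3 or Sibjeondaebo-tang 20 replicate 3. Of 24 regulators of SNAI protein turnover 5 rose, 3 fell and 16 were not called (median -0.01). In each of the 12 fits with 1 library left out only 1 to 2 fell, 1 without Palmul-tang 20 µg/mL replicate 2, Palmul-tang 500 replicate 2 or 3, or Sibjeondaebo-tang 20 replicate 3, and 3 rose without Palmul-tang 500 replicate 1, Palmul-tang 20 replicate 3 or Sibjeondaebo-tang 20 replicate 3. With no filter or the Wald test of DESeq2 1 fell. The phosphatase DUSP4 rose 1.19-fold, the kinase CSNK1E 1.12-fold and the ubiquitin ligase subunit FBXL5 1.13-fold, and the phosphatase CTDSP2 fell by 0.09, a call lost without Sibjeondaebo-tang 20 replicate 1 (edgeR adjusted p = 0.0667) or Palmul-tang 20 replicate 3 (0.0509).

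Of 25 other factors tied to EMT 5 rose, 3 fell and 17 were not called (median -0.01), and 3 rose in the compared groups only, with the Wald test of DESeq2, or without Palmul-tang 500 µg/mL replicate 2 or Sibjeondaebo-tang 20 replicate 1 or 3. SOX4 fell by 0.25, and the architectural factor HMGA2 rose 1.23-fold, HIF1A 1.11-fold and ETS1 1.11-fold. Among 17 forkhead relatives of FOXD1 only FOXO1, a factor kept out of the nucleus by insulin signals, was called, and it fell by 0.49. Without Sibjeondaebo-tang 20 µg/mL replicate 1 another rose, and without Sibjeondaebo-tang 20 or 500 replicate 2 another fell. Of 3 tested noncoding RNAs beside the factors, SNAI3-AS1 fell by 0.28 (edgeR adjusted p = 0.0408), a call lost with the Wald test of DESeq2 (adjusted p = 0.175), with no filter, in the compared groups only and in 8 of 12 edgeR fits with 1 library left out (adjusted p up to 0.172). ZEB1-AS1 was not called beside the rise of ZEB1, at 0.03 (edgeR adjusted p = 0.85). Of 53 genes taken by rule from the lists or for their likeness to a member, 22 have exons that overlap a counted gene on the opposite strand, among them ACTA2, TPM1, THBS1, SMAD3, ID2, GREM1, HMGA2 and WWTR1, and 4 on the same strand, HIF1A, FOXO1, MEG3 and RFFL.

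**Figure D5:**
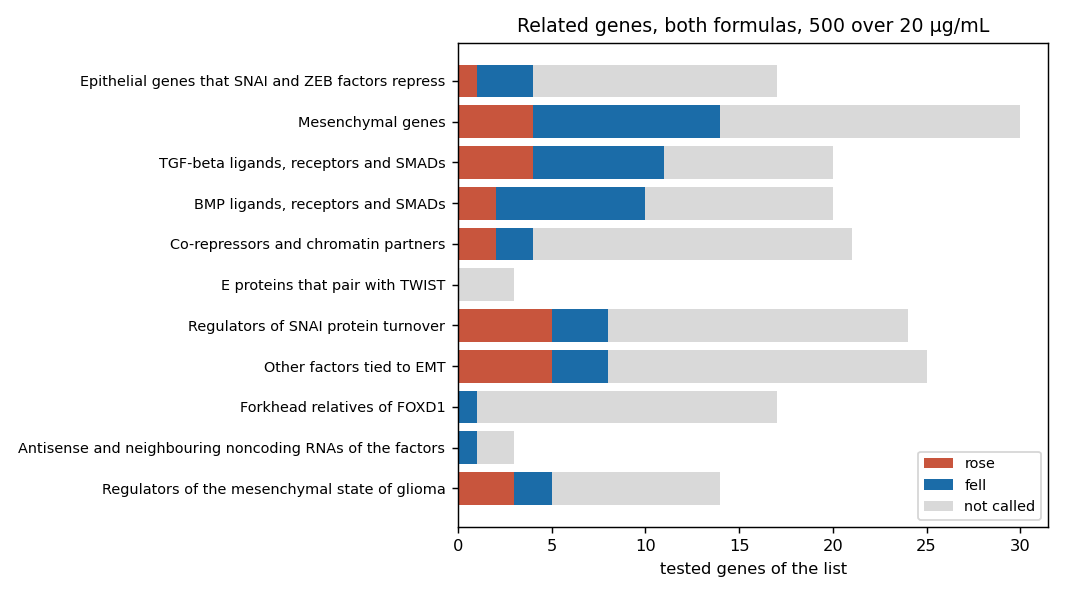
Number of tested genes (horizontal axis) in each of 11 lists of related genes that rose, fell or were not called at 500 over 20 µg/mL over both formulas. The 30 mesenchymal genes have 4 that rose and 10 that fell, and the 20 BMP genes 2 and 8.

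The genes whose levels ran most like those of the called members and of FOXD1 were ranked by Pearson r of log2 CPM over the 15 treated group means, vehicle left out, among 10202 genes; the groups share doses and library scaling, and 9 of them are single libraries. For ZEB1 these were BEX1 (r = 0.958), NCOA7 (0.953), RGMB (0.953), PMAIP1 (0.944) and DUSP6 (0.943). BEX1 had 134 ± 1.77 CPM at 20 and 173 ± 3.28 at 500 µg/mL of Palmul-tang, and 127 ± 3.51 and 157 ± 6.56 in Sibjeondaebo-tang. For ZEB2 RFFL led (r = 0.880), followed by USB1 (0.826), INTS12 (0.814), BMAL2 (0.810) and MAP2K3 (0.789). For SNAI1 the nearest were CCNG2 (r = 0.878), SERTAD1 (0.872), DMRTA2 (0.867), SMAD7 (0.854) and MEG3 (0.840). SMAD7, an inhibitor of TGF-beta signals, and SERTAD1 also had lower means than vehicle in 15 of 15 groups and DMRTA2 in 14, while CCNG2, an unconventional cyclin, did so in 3 and the noncoding RNA MEG3 in 0. FOXD1 had lower top values: SNX33 (r = 0.801), CSRNP1 (0.793), HNRNPD (0.790), GRK2 (0.765) and BIRC5 (0.763). SNX33 and HNRNPD had means below vehicle in 3 and 2 of 15 groups, and CSRNP1, GRK2 and BIRC5 in 15. Each list holds the highest of 10202 values of r, and whether unrelated genes would reach them was not tested. Without Sibjeondaebo-tang 500 µg/mL replicate 3, r ran from 0.944 to 0.961 for the 5 genes named for ZEB1, from 0.804 to 0.886 for ZEB2 and from 0.826 to 0.895 for SNAI1. For FOXD1 GRK2 dropped to 0.273, and 1 of its 5 genes, HNRNPD (0.827), was still among the first 5.

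Among the members themselves ZEB1 and ZEB2 ran together over the treated groups (r = 0.539 over 15 group means, 0.584 over 27 libraries), and SNAI1 ran against ZEB1 (r = -0.563 and -0.572). SNAI1 and FOXD1, both below vehicle throughout, had an r of -0.054 over the 15 treated groups and -0.178 over the 27 libraries. SNAI1 and PRRX1 had 0.641 over groups but 0.353 over libraries. These 4 pairs had 0.572, -0.622, -0.125 and 0.488 over groups without Sibjeondaebo-tang 500 µg/mL replicate 3. These are descriptions over libraries that share scaling, with no test.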

How the data were processed

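RNA of 30 SW1783 libraries was measured. Per the labels' protocols, libraries from RNA with integrity numbers above 7 were made with a directional MGI kit and read as 100 bp pairs. Per the submitters' processing notes, FastQC 0.11.9, Trim Galore 0.6.5, STAR 2.7.3a and RSEM 1.3.3 were used with hg38, and the authors deposited expected counts per gene, of which 24% of nonzero values were not whole. Annotation release, counting strand and filters are not given in the sources used here. Of 279 columns, 30 were used and 249 per-sample columns were not.

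Expected counts were rounded. Samples were grouped by extract and dose from the labels. In edgeR 4.0.16 (R 4.3.3), filterByExpr by group kept 17839 genes, and all 30 libraries were fitted with a mean for each group (TMM, robust glmQLFit, median total degrees of freedom 33.7), so single-library groups borrow the spread of replicated ones. Each contrast had a quasi-likelihood test (edgeR), with Benjamini-Hochberg adjustment at 0.05. CPM are scaled by TMM, and log2 CPM use a prior count of 2. The script was tested on simulated data. Comparisons with vehicle chose members and were given no test.

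The members, comparisons and lists were chosen with earlier results of these data known. Named were the members, up to 4 called genes per list by smallest p, markers, and the 5 genes most like SNAI1, FOXD1 and each other called member (mean log2 CPM of at least 3). GFAP, CDH1, VIM and CDH2 were named as markers, and ZEB1-AS1 was added after its value was seen. 1 gene that the rule takes is not reported here. The alternatives tried were edgeR with DESeq2's size factors, DESeq2 1.42.0 (Wald test, dispersion trend at its default setting), total counts only, no filter, the compared groups only, a replicate block, a prior count of 0.5 for log2 CPM, and each library left out.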

Additional observations from a re-analysis of the deposited data

How the results depend on the processing

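Over both formulas at 500 against 20 µg/mL, the calls of SNAI1 and ZEB1 held under every alternative and with each library left out; that of ZEB2 had 0.165 with the Wald test of DESeq2 and ranged from 0.127 to 0.207 with 1 library left out. Members called went from 1 to 2 in Palmul-tang in the compared groups only (FOXD1 added) and in Sibjeondaebo-tang with no filter (SNAI1 added), and ran from 1 to 2 in each with 1 library left out. Genes called in Sibjeondaebo-tang were 636 in the compared groups only. The formulas' dose changes differed for 12 genes with no filter and for 0 to 1 with 1 library left out. Between the formulas 0, 0, 11, 0 and 2 genes were called with DESeq2 size factors, total counts only, no filter, the compared groups only and the Wald test, and 0 to 2 with 1 library left out. For Samul-tang against the formulas, total counts only gave 0 members called, TWIST1 at -0.144 and TWIST2 at 0.006; with 1 library left out, genes called ran from 40 to 539, members called from 0 to 1, TWIST1 from -0.193 to -0.094 and TWIST2 from -0.057 to 0.045. Against vehicle, total counts only gave SNAI1 a mean of -0.489 and ZEB2 one of 0.012.

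With 1 library left out, the single-library extracts had 189 to 529 genes called, with SNAI1 from -0.042 to 0.197, ZEB2 from -0.006 to 0.213 and PRRX1 from -0.025 to 0.039; Poria Cocos against Atractylodis Rhizoma had 2 to 376 genes, SNAI1 from -0.028 to 0.008, TWIST2 from -0.057 to 0.023 and ZEB2 from -0.011 to 0.127. Signs of uncalled members changed likewise at 500 over 20 µg/mL for TWIST2 in Palmul-tang (-0.072 to 0.062), PRRX1 in Sibjeondaebo-tang (-0.144 to 0.001) and FOXD1 in both (-0.039 to 0.013). At 100 over 20 they did for SNAI1 (-0.041 to 0.053), TWIST2 (-0.013 to 0.034) and FOXD1 (-0.046 to 0.008). At 500 over 100 they did for TWIST1 (-0.012 to 0.028), FOXD1 (-0.016 to 0.031) and PRRX1 (-0.057 to 0.016), with 1 to 3 members called. In the difference of the dose changes they did for SNAI1 (-0.150 to 0.023), TWIST1 (-0.037 to 0.018), ZEB1 (-0.030 to 0.059), ZEB2 (-0.143 to 0.016) and PRRX1 (-0.099 to 0.048), and between the formulas for PRRX1 (-0.004 to 0.044). The cause was not tested in any of these. Here and for Samul-tang against the formulas, where a left-out library was the only one of its group, the groups set against it also left the comparison.

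Replicate numbers were not taken to pair the libraries. Only 18 of 45 same-numbered pairs had a correlation over 0.1 (lowest -0.189, median 0.078). However, the other pairs had a median of -0.046, and 14 of 18 libraries correlated best with their own number. The library codes of the formulas also carry the replicate number, but the labels do not say what libraries of a number shared. The main tests do not model such a block. With a replicate block 2343 rather than 2144 genes were called over both formulas, 2 members (ZEB1, and SNAI1 at -0.249 with an edgeR adjusted p of 0.0438) rather than 1 in Sibjeondaebo-tang, and 2 genes rather than 1 between the formulas. The compared-groups fit was not run for contrasts of single libraries, where a mean for each group leaves no residual degrees of freedom. Members had 339 to 3979 counts per library, and standard errors over both formulas ran from 0.028 to 0.060 at 500 over 20 µg/mL.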
